A study of Homo sapiens with 6 samples.

Results

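Circadian clock genes were followed through 6 RNA libraries of the established human cell line MIA PaCa-2, which derives from a pancreatic carcinoma. The members were rows of the deposited table that carry one of 10 clock gene names. Of these, 9 had a row (NR1D1, NR1D2, DBP, TEF, PER2, PER3, CRY1, ARNTL and CLOCK), out of 18268 rows in all, and PER1 was not analysed here. All 9 rows held a single symbol. The names were chosen by their function and selected on the FPKM values of these 6 libraries, which were in view, so the levels below, within and between the groups, are a description and no test of a member is given as support.

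The control group comprised 3 libraries of vector control cells, titled LCV2 (vector control 1 to 3). The other comprised 3 libraries of LINC00901 knockout cells (KO 1 to 3), in which a long non-coding RNA gene was targeted. All cells were grown in DMEM with fetal bovine and horse serum, and total RNA was extracted in the same way. The labels do not say how many knockout clones were used, whether libraries came from separate cultures, or when the cells were harvested, so spread and p-values measure differences between these libraries, which may be technical. LINC00901 was not analysed here, since 0 rows named it, and every direction rests on the labels. The labels call the cells epithelial. The keratin gene KRT18 stood between 28.78 and 79.42 FPKM, whereas the epithelial adhesion genes EPCAM and CDH1 did not exceed 0.14 and 0.02 FPKM and the mesenchymal filament gene VIM stood between 459.52 and 674.8. FPKM are fragments per length of transcript and per library size. Of the 4 listed leukocyte genes PTPRC and CD3E were listed at 0 in every library and CD79A did not exceed 0.62 FPKM, while CD68 had only a row joined with other genes, at 35.13 to 51.58 FPKM. In bulk RNA, fewer cells that express a gene and less RNA per cell cannot be told apart.

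The clock is a feedback loop of transcription factors that runs in most cells. CLOCK and ARNTL (also called BMAL1) pair and activate genes through E-boxes, among them the PER and CRY genes, whose proteins then repress the pair. A further loop is formed by NR1D1 and NR1D2, the nuclear receptors REV-ERB alpha and beta, which are activated by the pair and repress ARNTL through ROR elements. DBP and TEF are PAR bZIP factors that activate genes through D-boxes and carry the rhythm to output genes. In cultured cells the loops of single cells can be aligned by serum, glucocorticoids or forskolin.

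These elements were looked for in the promoter windows of the members, from 250 bases before to 50 bases after each start in RefSeq (GRCh38.p14), and 9 of 9 members had a window, 14 windows in all. The deposited values were made on hg19, and no coordinate of theirs is used. The E-box was searched as CACGTG, the D-box as TTATGTAA or TTACGTAA and the core of the ROR element as AGGTCA, on both strands. An E-box was found in 3 of 14 windows (NR1D2 and both windows of TEF), against 7.26% of the 35116 RefSeq windows. A D-box was found in 3 windows (NR1D2, PER2 and PER3), against 1.01%, and the ROR core in 1 (ARNTL), against 13.8%. A match describes letters in a window and shows no binding. The stretches with a match are shown because they hold the letters through which the members are known to be linked. Capitals mark the matches, each stretch is written 5′ to 3′ on the strand of the gene, and the D-box of NR1D2 lies on the opposite strand.
NR1D2, chr3:23945871-23946120, plus strand: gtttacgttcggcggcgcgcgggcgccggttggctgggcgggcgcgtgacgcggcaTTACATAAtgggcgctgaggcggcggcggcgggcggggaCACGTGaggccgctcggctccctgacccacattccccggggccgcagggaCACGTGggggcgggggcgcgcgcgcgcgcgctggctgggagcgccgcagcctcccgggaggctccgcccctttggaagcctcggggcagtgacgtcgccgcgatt
TEF, chr22:41367205-41367332, plus strand: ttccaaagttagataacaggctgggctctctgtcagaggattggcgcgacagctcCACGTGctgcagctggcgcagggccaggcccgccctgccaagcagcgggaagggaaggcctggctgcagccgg
PER2, chr2:238288601-238288860, minus strand: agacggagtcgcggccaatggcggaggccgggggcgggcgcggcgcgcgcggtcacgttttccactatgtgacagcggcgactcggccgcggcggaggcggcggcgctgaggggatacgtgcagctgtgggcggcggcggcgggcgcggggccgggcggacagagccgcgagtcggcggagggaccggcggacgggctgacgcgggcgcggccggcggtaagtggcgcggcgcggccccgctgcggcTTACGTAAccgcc
PER3, chr1:7784041-7784290, plus strand: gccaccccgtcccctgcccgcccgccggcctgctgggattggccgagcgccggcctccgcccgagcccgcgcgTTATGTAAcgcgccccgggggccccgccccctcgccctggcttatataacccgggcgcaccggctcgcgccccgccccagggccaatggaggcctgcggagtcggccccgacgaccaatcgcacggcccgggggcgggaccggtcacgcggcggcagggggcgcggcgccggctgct
ARNTL, chr11:13277809-13277838, plus strand: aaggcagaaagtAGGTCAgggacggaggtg
The stretches of NR1D2, TEF and PER3 held 0 bases of a GENCODE 29 exon. In NR1D2 the E-boxes begin at positions -155 and -105 from the start and the D-box spans -194 to -187. The D-box of PER2 spans the start itself, from -3 to 5, and the ROR core of ARNTL lies after the start, at 32 to 37. The E-box of TEF shown begins at -195, and that of its other window, not shown, at -193. Windows of NR1D1, DBP, CRY1 and CLOCK held none of these letters. Variants of these letters and sequence outside the windows were not searched. A window without a match, such as that of PER2 for the E-box, is therefore not shown to lack an element.

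Of the members, NR1D1 varied most between libraries of the same group. This gene, which encodes REV-ERB alpha, stood at 3.19, 52.28 and 50.9 FPKM in vector control 1 to 3 and at 19.86, 6.99 and 6.09 in KO 1 to 3. Vector control 2 and 3 were thus the highest libraries, KO 1 came next, and vector control 1 was the lowest, below every KO library. The mean of vector control 2 and 3 was 16.2 times the value of vector control 1, while KO 1 was 3.04 times the mean of KO 2 and 3. The mean was 35.5 ± 28.0 FPKM for the vector controls and 11.0 ± 7.70 for the KO libraries (SD, n = 3 per group). The difference between the group means on the log2(FPKM + 1) scale, KO minus vector control, was -1.10, and the groups overlapped.

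NR1D2, which encodes REV-ERB beta, stood at 2.7, 12.87 and 12.26 FPKM in vector control 1 to 3 and at 14.08, 10.76 and 11.3 in KO 1 to 3. Vector control 1 was low, and the other 5 libraries lay close together. The mean of vector control 2 and 3 was 4.65 times vector control 1, and KO 1 was 1.28 times the mean of KO 2 and 3. The group means were 9.28 ± 5.70 and 12.0 ± 1.78 FPKM (log2 difference 0.56, n = 3 per group). The ratio of NR1D1 to NR1D2, both per length, was 4.06 and 4.15 in vector control 2 and 3, 1.41 in KO 1, 1.18 in vector control 1 and 0.65 and 0.539 in KO 2 and 3. NR1D1 was therefore the higher of the 2 receptors in every vector control and in KO 1, and the lower in KO 2 and KO 3.

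The PAR bZIP genes divided the libraries in a similar way. DBP stood at 1.55, 12.79 and 11.34 FPKM in vector control 1 to 3 and at 12.88, 5.04 and 4.72 in KO 1 to 3. KO 1 lay beside vector control 2 and 3, KO 2 and 3 lay lower, and vector control 1 was the lowest. The means were 8.56 ± 6.11 and 7.55 ± 4.62 FPKM (log2 difference 0.05, n = 3 per group), so group means that were close covered an 8.31-fold range over single libraries. TEF stood at 4.34, 10.41 and 10.91 FPKM in vector control 1 to 3 and at 13.66, 8.27 and 8.46 in KO 1 to 3. KO 1 was the highest library and vector control 1 again the lowest. The means of TEF were 8.55 ± 3.66 and 10.1 ± 3.06 FPKM (log2 difference 0.28, n = 3 per group).

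**Figure D1:**
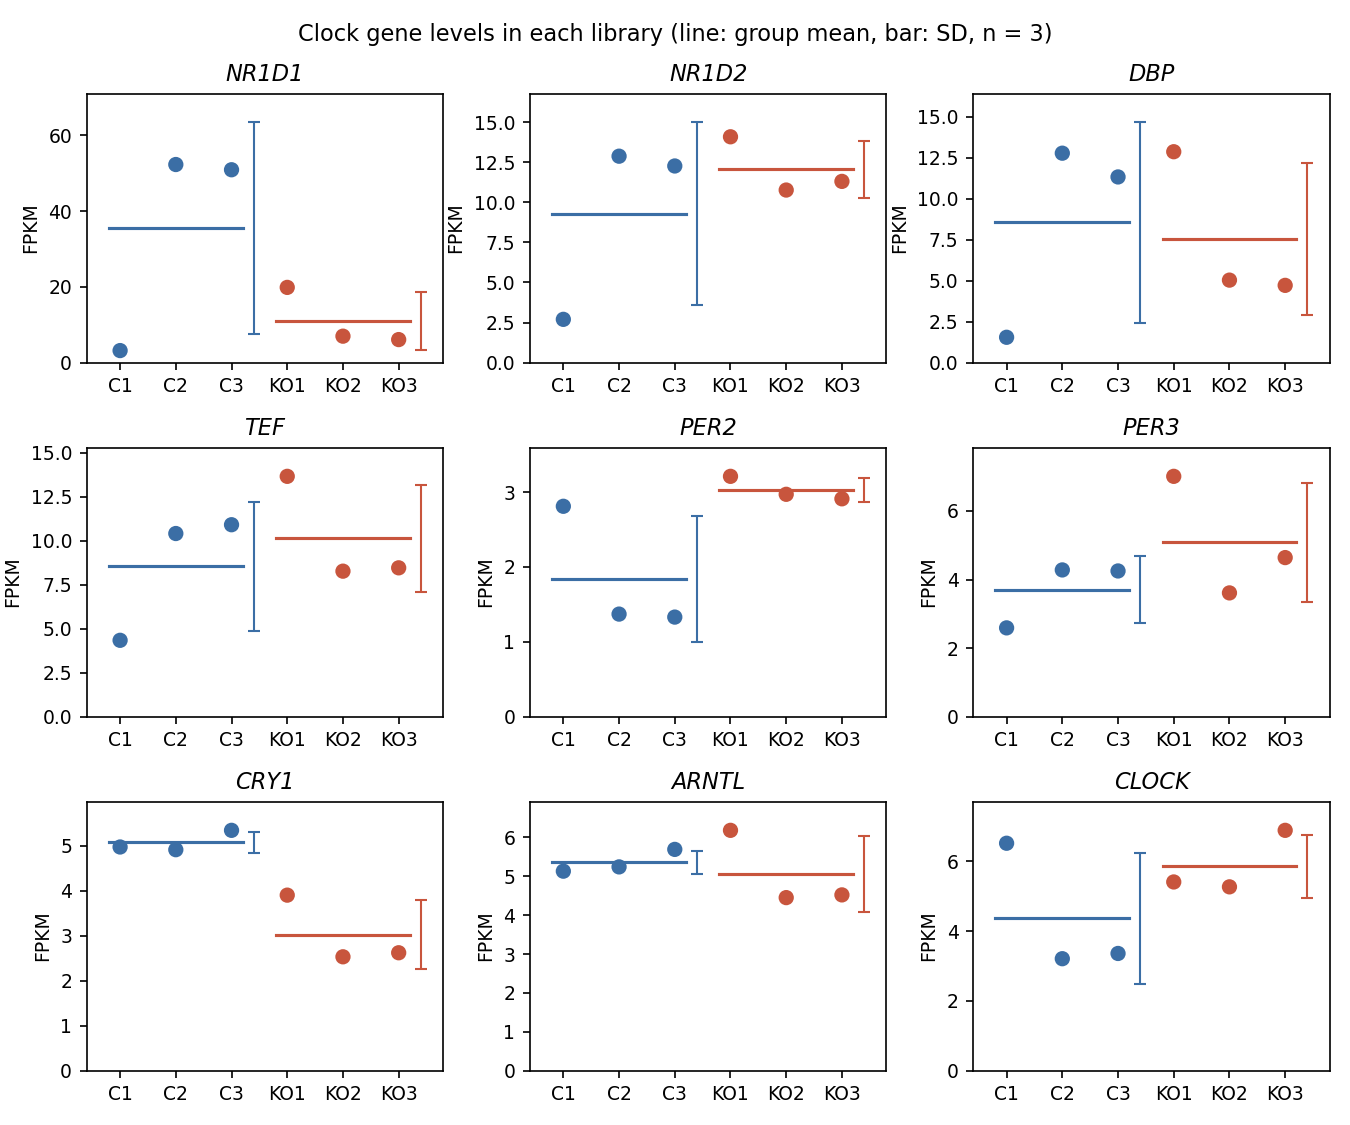
FPKM of the 9 clock genes in vector control 1 to 3 (C1 to C3, blue) and KO 1 to 3 (red), with linear axes from 0, group means as lines and SD as bars (n = 3 per group). NR1D1, NR1D2, DBP, TEF and PER3 are lowest in vector control 1, and the KO and control points separate fully in PER2 and CRY1 alone.

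The PER genes, whose proteins repress CLOCK and ARNTL, did not share a pattern. PER2 stood at 2.81, 1.37 and 1.33 FPKM in vector control 1 to 3 and at 3.21, 2.97 and 2.91 in KO 1 to 3. Here vector control 1 was the high control and lay near the KO libraries, although the groups did not overlap. The means were 1.84 ± 0.843 and 3.03 ± 0.159 FPKM (log2 difference 0.55, n = 3 per group). PER3 stood at 2.59, 4.28 and 4.25 FPKM in vector control 1 to 3 and at 7.01, 3.61 and 4.64 in KO 1 to 3. As for TEF, KO 1 was the highest and vector control 1 the lowest library, and the groups overlapped. Its means were 3.71 ± 0.967 and 5.09 ± 1.74 FPKM (log2 difference 0.36, n = 3 per group). The ratio of PER3 to PER2 was 3.12 and 3.20 in vector control 2 and 3, 2.18 in KO 1, between 1.22 and 1.59 in KO 2 and 3, and 0.922 in vector control 1.

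CRY1, the cryptochrome that represses the CLOCK and ARNTL pair together with PER, was steady among the vector controls at 4.97, 4.91 and 5.34 FPKM. It stood at 3.9, 2.53 and 2.62 FPKM in KO 1 to 3. All KO libraries lay below all vector controls, with KO 1 nearest to them. The means were 5.07 ± 0.233 and 3.02 ± 0.766 FPKM (log2 difference -0.61, n = 3 per group).

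Of the activators, ARNTL varied least of all members and CLOCK more. ARNTL stood at 5.13, 5.24 and 5.69 FPKM in vector control 1 to 3 and at 6.18, 4.45 and 4.52 in KO 1 to 3, a 1.39-fold range over all libraries. Its means, 5.35 ± 0.297 and 5.05 ± 0.979 FPKM, differed by less than the spread between libraries (log2 difference -0.08, n = 3 per group). CLOCK stood at 6.52, 3.21 and 3.36 FPKM in vector control 1 to 3 and at 5.41, 5.27 and 6.89 in KO 1 to 3. Vector control 1 lay among the KO libraries, above vector control 2 and 3. The means of CLOCK were 4.36 ± 1.87 and 5.86 ± 0.898 FPKM (log2 difference 0.40, n = 3 per group). Measured against ARNTL in the same library, NR1D1 was 9.98 and 8.95 times as high in vector control 2 and 3, 3.21 times in KO 1, 1.57 and 1.35 times in KO 2 and 3 and 0.622 times in vector control 1. The library order in NR1D1 is thus the same whether or not the value is divided by that of ARNTL.

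The order of levels, which FPKM allows because it is per length, differed between libraries. NR1D1 was the highest member in vector control 2, vector control 3 and KO 1, NR1D2 in KO 2 and KO 3, and CLOCK in vector control 1, where NR1D1 came after CLOCK, ARNTL, CRY1 and TEF and DBP came last. By group mean the vector controls ran NR1D1, NR1D2, DBP, TEF, ARNTL, CRY1, CLOCK, PER3 and PER2. Each neighbouring pair in that order differed by less than the larger of its SDs, except PER3 and PER2. In the KO libraries the order was NR1D2, NR1D1, TEF, DBP, CLOCK, PER3, ARNTL, PER2 and CRY1. Of its neighbours only ARNTL and PER2 differed by more than the larger of their SDs.

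The spread within the groups was compared with that of the 9624 genes tested, those that reached 1 FPKM in 3 or more libraries, and 9 of 9 members passed this filter. The pooled within-group SD on the log2(FPKM + 1) scale was 1.61 for NR1D1, larger than in 99.9% of those genes. It was 1.09 for DBP (larger than in 99.5%), 0.78 for NR1D2 (97.6%) and 0.53 for TEF (90.2%). ARNTL and CRY1 lay at the other end, at 0.17 and 0.19 (25.1% and 33.1%), and PER2, PER3 and CLOCK between them. The median of the 9 members was 0.36 and that of all tested genes 0.25. Within the group of vector controls, DBP had an SD of 1.36 and CRY1 one of 0.05 on this scale.

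For NR1D1, DBP, NR1D2 and TEF most of this spread lay between library 1 of each group and the other libraries of that group. This did not hold in the KO libraries for CLOCK, where KO 1 differed from the mean of KO 2 and 3 by -0.13. It did not hold either in the vector controls for CRY1 and ARNTL. On the log2(FPKM + 1) scale vector control 1 differed from the mean of vector control 2 and 3 by -3.65 for NR1D1, -2.35 for DBP, -1.87 for NR1D2 and -1.13 for TEF. It differed by 0.81 for CLOCK and 0.70 for PER2 in the other direction, and by -0.04 for CRY1 and -0.08 for ARNTL. Vector control 2 and 3 themselves differed by at most 0.16 in any member. Vector control 1 lay at least 1 below both others in 4 of the 9 members, a pattern found in 3.65% of all tested genes. It was the lowest of the 6 libraries in 5 members, against 22.5%, and above vector control 2 and 3 in PER2 and CLOCK, against 49.9%. KO 1 differed from the mean of KO 2 and 3 by 1.47 for NR1D1, 1.24 for DBP and 0.65 for both TEF and PER3, and KO 2 and 3 differed from each other by at most 0.33. KO 1 was above both KO 2 and KO 3 in 8 of the 9 members, CLOCK being the exception, against 38.7% of tested genes. It was above both by at least 1 in NR1D1 and DBP, against 1.02%. Vector control 1 below and KO 1 above the other libraries of their group was found in 6 members (NR1D1, NR1D2, DBP, TEF, PER3 and ARNTL) and in 21.2% of tested genes. These shares are descriptions of members chosen with the values in view.

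**Figure D2:**
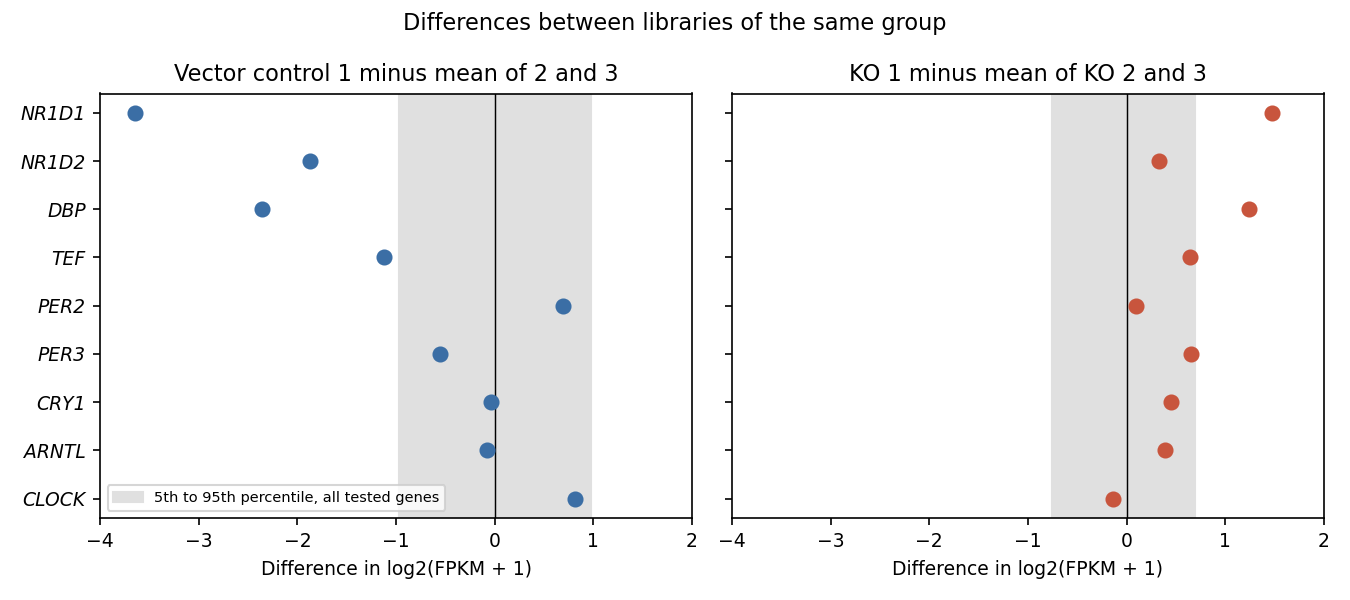
Difference in log2(FPKM + 1) between vector control 1 and the mean of vector control 2 and 3 (left) and between KO 1 and the mean of KO 2 and 3 (right), one point per clock gene, with a grey band from the 5th to the 95th percentile of the 9624 tested genes. NR1D1, DBP, NR1D2 and TEF lie below the band on the left (-0.97 to 0.97), and NR1D1 and DBP above it on the right (-0.76 to 0.70).

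Other features of the libraries moved with these values. Pearson's r between libraries was taken across the tested genes, which are not independent replicates. It was 0.932 between vector control 1 and KO 3 but 0.904 between vector control 1 and 2. Vector control 2 with 3 stood at 0.979 and KO 2 with 3 at 0.970. KO 1 stood closer to its own group, at 0.933 and 0.935 with KO 2 and 3, against 0.920 and 0.921 with vector control 2 and 3. The 65 rows of replication-dependent histone genes, which are transcribed in S phase, made up between 5.20% and 6.26% of all FPKM in vector control 1, KO 2 and KO 3, and between 2.82% and 3.28% in the other 3 libraries. The 3 libraries with the higher histone share were those with the lower NR1D1 and DBP. The proliferation marker MKI67 stood at 27.26, 18.3 and 18.33 FPKM in vector control 1 to 3 and at 8.66, 24.68 and 25.94 in KO 1 to 3. All 15 listed mitosis genes were lower in KO 1 than in KO 2 and 3. How many of all tested genes were lower in KO 1 in this way was not counted, so nothing is read from that count. Higher in KO 1 than in KO 2 and 3 were 0 of the 15, against 38.7% of tested genes. Of the 15, 11 were higher in vector control 1 than in vector control 2 and 3, against 49.9% of tested genes. The summed level of the 15 genes was 687 to 834 FPKM among vector controls and 502 to 883 among KO libraries. Between the groups limma called 0 of the 15, against 1.35% of tested genes. FPKM sums per library ran from 123107 (KO 1) to 134389 (vector control 3). The part of these features in the spread of the clock genes was not tested.

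Several members overlap a gene on the opposite strand, and the use of strand in counting is not given in the sources used here, so reads in the overlap cannot be told apart. In GENCODE 29, 9.49% of the exonic bases of NR1D1 are shared with THRA, the thyroid hormone receptor alpha gene. THRA stood at 4.13, 14.27 and 14.57 FPKM in vector control 1 to 3 and at 13.53, 4.17 and 5.79 in KO 1 to 3. It was thus high in the same 3 libraries as NR1D1, and NR1D1 exceeded it in 5 libraries but not in vector control 1. DBP shares 23% of its exonic bases with SPHK2, which did not exceed 1.35 FPKM and was higher in KO 2 and 3 than in KO 1, unlike DBP. PER3 shares 13.4% with UTS2, which was listed at 0 in every library. NR1D2, TEF and ARNTL share no exonic base with another gene in that annotation.

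Genes whose profile came closest to that of NR1D1 were found by the root mean square difference between log2(FPKM + 1) profiles centred on each gene's mean over the 6 libraries. The nearest of 9623 other tested genes was the joined row DDIT3;AC022506, at 0.24, where DDIT3 encodes the stress-induced factor CHOP. It stood at 6.97, 69.97 and 54.91 FPKM in vector control 1 to 3 and at 29.11, 10.39 and 8.25 in KO 1 to 3. PHLDA2, an imprinted pleckstrin homology gene, followed at 0.31, and GDF15, a secreted TGF-beta family member, at 0.40. The CDK inhibitor gene CDKN1C and the thioredoxin-binding TXNIP both stood at 0.41. TXNIP ran from 24.22 FPKM in vector control 1 to 289.52 and 291.61 in vector control 2 and 3, with 191.75 in KO 1 and 27.84 and 31.31 in KO 2 and 3. As these 5 genes were picked for likeness to NR1D1 over the same libraries, a shared pattern follows from the choice. All 5, like NR1D1, were higher in vector control 2 and 3 than in any KO library. The lowest library was vector control 1 for 4 of them and KO 2 for CDKN1C. Among the members DBP came nearest to NR1D1, at 0.72 (position 43), followed by NR1D2 at 1.09 (position 435), and THRA stood at 0.79 (position 63).

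**Figure D3:**
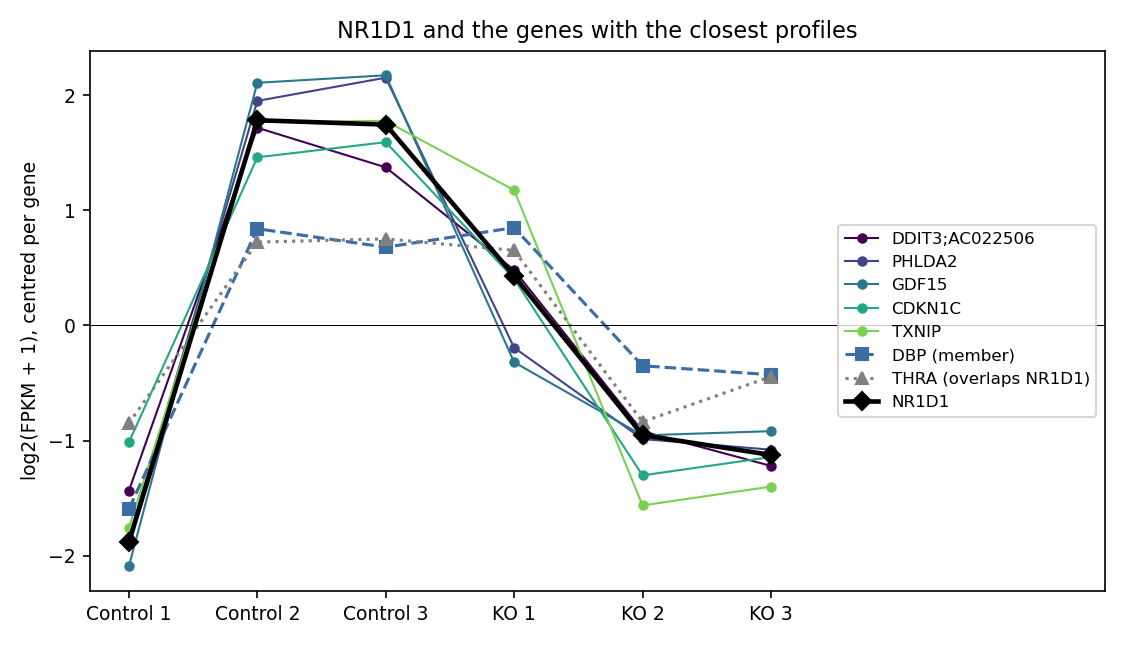
log2(FPKM + 1) of NR1D1 (black), its 5 nearest genes outside the members, DBP and the overlapping gene THRA in each library, centred on the mean of each gene over the 6 libraries; the lines join values of 1 gene and imply no order of libraries. NR1D1 and its nearest genes are high in vector control 2 and 3 and intermediate to low in KO 1, KO 2, KO 3 and vector control 1, while DBP and THRA are about as high in KO 1 as in vector control 2 and 3.

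For ARNTL the nearest profiles were those of MTHFD2L, OSTF1, the joined row RPL26;KRBA2, ADCY9 and DENND5A, at 0.03 to 0.05. OSTF1 stood at 3.68, 3.55 and 4.09 FPKM in vector control 1 to 3 and at 4.66, 3.05 and 3.17 in KO 1 to 3, a small rise in KO 1 as in ARNTL. CRY1, at 0.27, was the member nearest to ARNTL, but only at position 3722. ARNTL and NR1D1 were far apart on this measure, at 1.35.

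Between the groups, the fit over all tested genes (limma on log2(FPKM + 1), Benjamini-Hochberg adjustment, adjusted p below 0.05) called 0 of the 9 members, against 1.35% of the 9624 tested genes (0.509% higher and 0.842% lower in the KO libraries). At an unadjusted p below 0.05 it had 2 members, PER2 and CRY1, against 17.5%, and with robust limma and array weights it called 5, against 41.8%. The groups did not overlap in PER2, higher in the KO libraries, and in CRY1, lower in them, that is in 2 of 9 members against 23.8% of tested genes (15.4% higher, 8.35% lower). The median log2 fold change of the members was 0.28, that of all tested genes 0.08. The contrast was in view when the members were proposed, so nothing is read from these counts. Over all tested genes 130 were called, 49 higher and 81 lower in the KO libraries. This split was 29 and 81 after median scaling and 31 and 99 after quantile normalization. The balance turned to more higher than lower calls without vector control 1 (841 higher, 488 lower), with robust limma and array weights (2596 and 1424) and without vector control 1 and KO 1 (2265 and 1310).

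The direction of 3 members turned on vector control 1. Without that library the log2 fold change was -2.31 for NR1D1 (against -1.10 with it), -0.74 for DBP (0.05), -0.06 for NR1D2 (0.56) and -0.10 for TEF (0.28). PER2, PER3, CRY1, ARNTL and CLOCK kept their direction, at 0.78, 0.17, -0.62, -0.11 and 0.67. Without that library limma called NR1D1, PER2 and CLOCK, against 13.8% of tested genes. With vector control 1 and KO 1 both left out, a choice made after the data were seen, the values were -2.80 for NR1D1, -1.15 for DBP, -0.32 for TEF and -0.17 for NR1D2, and PER3 turned to -0.05. In that comparison 6 members were called, against 37.1%. Nothing is read from either count of calls, since the members were chosen with these values in view. The log2 fold change of NR1D1 was negative in each of these comparisons, but only -0.48 without vector control 2 and -0.50 without vector control 3. DBP stood at 0.48 and 0.40 without those libraries, and at -0.37 without KO 1. DBP also turned sign with median scaling (-0.03) and quantile normalization (-0.02). With all 6 libraries kept but weighted, in robust limma with array weights, the values were -0.99 for DBP, -0.22 for TEF and -0.09 for NR1D2, and the median of the members was -0.19 in place of 0.28.

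**Figure D4:**
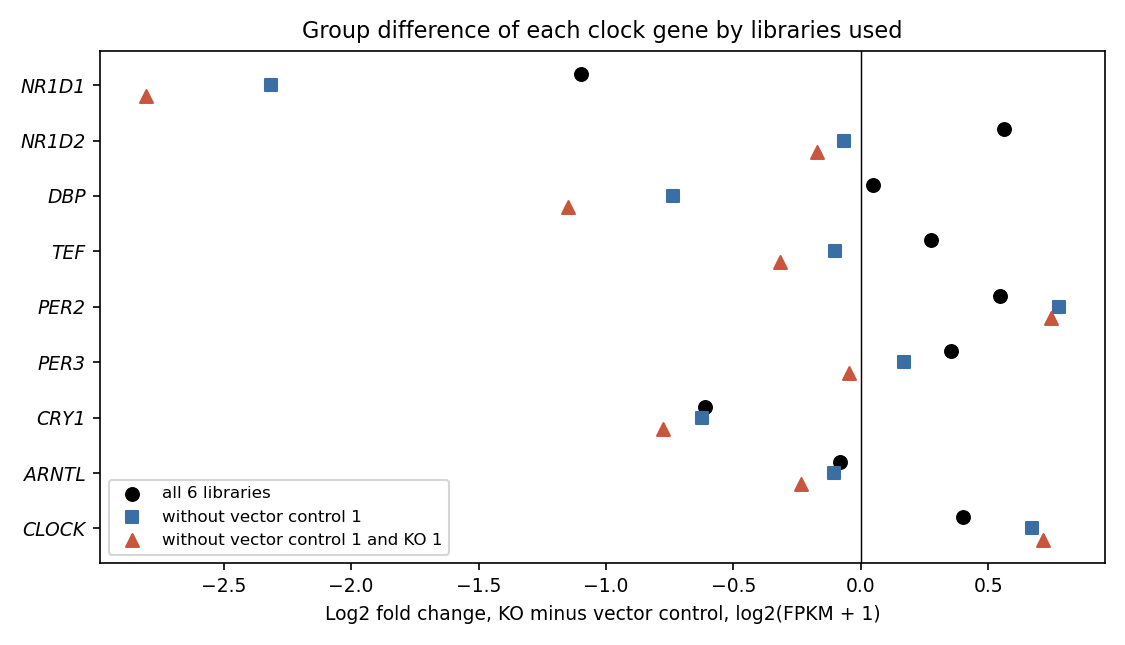
Log2 fold change, KO minus vector control, on the log2(FPKM + 1) scale for each clock gene with all 6 libraries (circles), without vector control 1 (squares) and without vector control 1 and KO 1 (triangles). NR1D2, DBP and TEF move from above 0 to below 0, NR1D1 moves from -1.10 to -2.80, and CRY1, ARNTL, PER2 and CLOCK keep their side.

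The remaining genes of the pathway were taken from lists of 44 genes that act with the members. The lists were chosen with earlier results of these data known, so their calls are no independent support. Of these, 30 were tested, 5 had only a row joined with other genes, 8 lay below the filter and 1 had no row. Between the groups 1 of the 30 fell (0.842% of all tested genes did), 0 rose and 29 did not pass, with a median log2 fold change of 0.09. NAMPT, the NAD salvage enzyme whose gene is a known target of CLOCK and ARNTL, stood at 26.72, 29.63 and 30.09 FPKM in vector control 1 to 3 and at 14.86, 15.2 and 15.33 in KO 1 to 3. It was lower in 3 of 3 KO libraries, with little spread in either group, and vector control 1 stood with the other controls. NAMPT fell by 0.88 on the log2 scale (SE 0.13, limma adjusted p = 0.0293). The adjusted p of NAMPT ran from 6.96e-04 to 0.219 over 16 alternatives, 10 of which called it, and the call was lost without any single library other than vector control 1 (0.0588 without KO 1, 0.155 to 0.164 without the others). The count of called pathway genes was 8 of 30 without vector control 1 (3 higher, 5 lower: BTRC, CRTC1, CRTC2, FKBP5, NAMPT, NFIL3, TSC22D3 and WEE1), where 13.8% of all tested genes were called. It was 14 of 30 without vector control 1 and KO 1 (7 higher, 7 lower), where 37.1% of all tested genes were called. It was 0 when any other single library was left out.

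**Figure D5:**
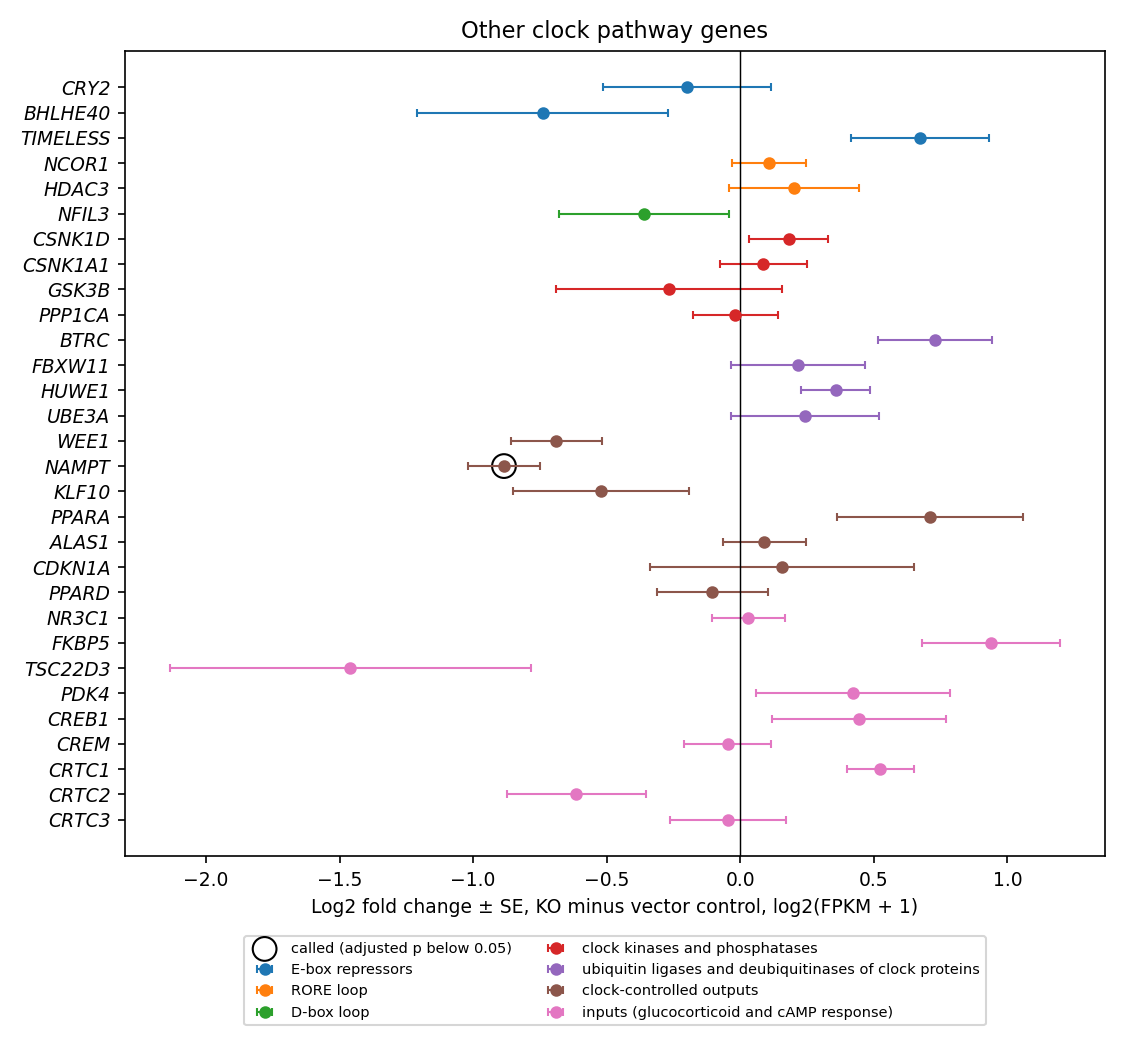
Log2 fold change with its standard error, KO minus vector control, on the log2(FPKM + 1) scale for the 30 tested pathway genes outside the members, coloured by list (3 libraries per group). NAMPT, at -0.88, is the gene circled as called.

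By role, the paralogs of the activators, NPAS2 and ARNTL2, lay below the filter, at no more than 0.19 and 0.27 FPKM. Of 3 tested genes in the list of E-box repressors 0 were called. TIMELESS, which encodes a replication fork protein and was placed in that list, had the highest fold change at 0.67 (adjusted p = 0.247). It stood at 7.48 FPKM in KO 1 against 14.3 and 14.41 in KO 2 and 3. BHLHE40 (DEC1) had the lowest at -0.74 (adjusted p = 0.456), with 4.88, 12.61 and 12.35 FPKM in vector control 1 to 3 and 2.73, 9.98 and 4.6 in KO 1 to 3. Its fold change ran from -1.16 without KO 2 and -1.14 without vector control 1 to -0.38 without KO 1. CRY2, the other cryptochrome gene, stood at 1.11, 3.7 and 3.36 FPKM in vector control 1 to 3 and at 2.23, 2.36 and 1.63 in KO 1 to 3 (log2 fold change -0.20, adjusted p = 0.783). Its low value in vector control 1 is a pattern of NR1D1 and DBP, and not of CRY1.

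In the ROR loop, RORA did not exceed 0.41 FPKM and RORB was listed at 0. The 2 tested corepressor genes through which REV-ERB proteins act, NCOR1 and HDAC3, were not called, with log2 fold changes of 0.11 and 0.20 (adjusted p = 0.733 and 0.708). NFIL3, the D-box repressor that opposes DBP and TEF, stood at 5.15, 12.02 and 13.07 FPKM in vector control 1 to 3 and at 6.86, 6.46 and 8.08 in KO 1 to 3 (-0.36, adjusted p = 0.602), with vector control 1 below all KO libraries. It was -0.74 and called without vector control 1 (limma adjusted p = 0.0282), -0.20 without vector control 2 and -0.14 without vector control 3. HLF, the third PAR bZIP gene, was listed at 0 in every library. Of 4 tested kinase and phosphatase genes 0 were called. CSNK1D, which encodes a casein kinase that marks PER proteins, had the highest fold change at 0.18 (adjusted p = 0.571) and GSK3B the lowest at -0.27 (adjusted p = 0.786).

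Of 4 tested ubiquitin ligase genes 0 were called. BTRC, which encodes a ligase subunit that recognises phosphorylated PER, had the highest fold change at 0.73 (adjusted p = 0.165), from 3.62 ± 1.27 to 6.49 ± 0.420 FPKM (n = 3 per group). FBXW11, its paralog, had the lowest at 0.22 (adjusted p = 0.699). Among 7 tested outputs NAMPT alone was called, and PPARA had the highest fold change at 0.71 (adjusted p = 0.342). Glucocorticoid and cAMP signals are inputs to the clock, and among 9 tested genes that relay or respond to them 0 were called. FKBP5, a glucocorticoid-induced chaperone gene, had the highest fold change at 0.94 (adjusted p = 0.153), from 3.72 ± 1.47 to 7.78 ± 1.10 FPKM (n = 3 per group). TSC22D3 (GILZ), also induced by glucocorticoids, had the lowest at -1.46 (adjusted p = 0.317). It stood at 2.95, 31.88 and 13.49 FPKM in vector control 1 to 3 and at 3.17, 3.7 and 3.62 in KO 1 to 3, with vector control 1 again beside the KO libraries. Its fold change was -2.28 and called without vector control 1 (limma adjusted p = 0.0181), and -0.75 without vector control 2. The receptor gene NR3C1 stood between 14.07 and 16.43 FPKM in all libraries.

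Immediate early genes, some of which respond to serum as PER1 and PER2 can, gave no call among 11 tested. Their median log2 fold change was -0.13, with IER2 at 0.52 (adjusted p = 0.376) and ATF3 at -0.64 (adjusted p = 0.502) at the ends. In 8 of the 11, vector control 1 lay below vector control 2 and 3, as it did in 6 of the 9 clock genes and 38.6% of tested genes. The summed level of the 12 listed genes, 1 of them in a joined row, was 202 to 226 FPKM among vector controls and 211 to 229 among KO libraries.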

How the data were processed

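Total RNA of 6 libraries was measured. The authors deposited 1 table of FPKM values, 1 column per library. The submitters' processing notes name HISAT2, cutadapt and FastQC, with the build hg19. Not given in the sources used here are versions, annotation, strand use and the tool behind FPKM. Depth is unknown, so the number of libraries and their spread set the precision. Columns were matched to libraries by title and description, and titles gave the groups. The fit was limma 3.58.1 in R 4.3.3 (lmFit, eBayes with trend) of the KO against the vector control libraries on log2(FPKM + 1), two-sided, for 9624 genes that reached 1 FPKM in 3 or more libraries, adjusted by Benjamini-Hochberg and called below 0.05. This scale understates changes of low genes. The code was tested on simulated data drawn with the spread between KO 2 and KO 3 alone. That test checks the code and does not measure the power of the fit in these data. Alternatives were other pseudocounts, filters, scalings and variance models, a replicate block and left-out libraries. Of the 990 rows that join several symbols, those with a listed gene were left out of the counts of calls in the lists. The summed level of the immediate early genes includes 1 such row. A further pathway gene is not reported here. Members and lists were chosen with earlier results of these data known. Named were all members, called pathway genes, the highest and lowest fold change of each list, and the 5 nearest profiles of NR1D1 (widest range) and ARNTL. RORA, RORB, NPAS2, ARNTL2, HLF, CRY2, NR3C1, CRTC1, CRTC2, WEE1, THRA, SPHK2 and UTS2 were added after their values were seen.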

Additional observations from a re-analysis of the deposited data

How the results depend on the processing

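Over all tested genes the count of calls was 130. It was 241 without a filter, 59 with a filter at 5 FPKM, 4020 with robust limma and array weights and 3575 without vector control 1 and KO 1 (an alternative chosen after the data were seen). It ran from 25 to 1329 when single libraries were left out. With the replicate number as a block it was 7. It was 110 to 130 with the other pseudocounts, the other scalings and without a trend. The count of called pathway genes outside the members, 1, became 14 with robust limma and array weights (where 41.8% of all tested genes were called), 14 without vector control 1 and KO 1 (37.1%), and 0 with the replicate block, and ran from 0 to 8 with single libraries left out (8 without vector control 1, where 13.8% of all were called). Same-numbered libraries did not deviate together (r = -0.37, -0.15 and -0.26 for numbers 1 to 3, and 0 of 6 libraries correlated best with their own number), so the numbers are not treated as pairs. HDAC3 turned to -0.0741 with robust limma and array weights and -0.0497 without vector control 1 and KO 1. With single libraries left out, FBXW11 ran from -0.0633 to 0.41 and GSK3B from -0.52 to 0.19. The cause was not tested.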
